A study of Rattus norvegicus with 18 samples.

Results

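The enzymes examined here carry long-chain and medium-chain fatty acids through beta-oxidation in the mitochondrion, together with a coactivator of their genes. The set holds 8 of the 55335 gene identifiers in the count table: Cpt2, Acadvl, Acadl, Acadm, Hadha, Hadhb and Acaa2, which encode 7 proteins of the pathway, and Ppargc1a. They were picked by a list of mouse Ensembl identifiers with their symbols, a rule with no threshold on expression. All 8 passed the filter on low counts. The pairing of identifier and symbol is that of the list, since neither the count table nor the rat gene table used here pairs identifiers with names.

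Beta-oxidation shortens a fatty acid by repeated rounds of dehydrogenation, hydration, a further dehydrogenation and thiolytic cleavage. It is a main source of ATP in the proximal tubule of the kidney, a segment with many mitochondria and little glycolysis. PGC-1alpha, the product of Ppargc1a, binds nuclear receptors such as PPAR-alpha and the estrogen-related receptors and raises transcription of genes of this pathway and of mitochondrial biogenesis.

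RNA from kidney was sequenced in 18 libraries, 6 per group. The treated group (Treat) consisted of animals of the diabetic nephropathy model that were given TSK, a preparation named only by this abbreviation, orally at 500 mg/kg per day for 4 weeks. The model group (DN) had a high-fat diet and an injection of STZ (streptozotocin, a toxin of the insulin-producing cells), so that both treated and DN animals carried the diet and the toxin together. Control animals (Ctrl) had ordinary feed and the solvent by gavage. The labels name the species as rat and give no strain, age or sex, whereas all 55335 identifiers are mouse Ensembl identifiers. If rat reads were counted on mouse genes, the counts of a gene can be compared between libraries, but levels of different genes cannot be compared with each other.

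Libraries held 22040987 to 28135824 counts in Treat, 25505257 to 35275498 in DN and 26312358 to 34140706 in Ctrl. The lowest count of any of the 8 genes in any library was 1954, where counting error amounts to 2.26%, well under the spread between animals. Values below are CPM, counts relative to library totals scaled by TMM factors, which averaged 1.057 in Treat, 0.964 in DN and 0.983 in Ctrl. Among the controls, the only group searched in the following way, a pair of libraries stood apart. For 6 identifiers, the 5 other controls were separated at least 10-fold from control library 4 and from every Treat and DN library, while the same search with any other control in its place found 0 or 1. Control library 5 exceeded every other library at least 10-fold for 92 identifiers of at least 5 CPM, against 0 or 1 for each other control. For the genes called in DN versus Ctrl, fold changes without control library 4 and without both libraries are therefore given below. For other results such values are given only in part. Treated library 1 had the largest TMM factor of all libraries, 1.146. It was low for several of the 8 genes and is named where it matters.

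Reference sequence was available for 6 of the 8 genes as windows of 300 bases, from 250 before to 50 after the gene start (RefSeq, rat assembly GRCr8). The other genes are Acadl and Acaa2. The 4 windows below are shown because Cpt2 rose most in the model, because Acadm and Ppargc1a share an element, and because Hadha and Hadhb are transcribed away from each other out of the same stretch. Capitals in Cpt2 mark the match to CCGGAAGT, the core bound by ETS factors such as GABP, and capitals in Acadm and Ppargc1a mark TGACGTCA, the cyclic AMP response element. In Hadha, capitals mark the 200 bases that also lie in the window of Hadhb, whose start is 301 bases away on the opposite strand.
Cpt2 (chr5:127910769-127911068, minus strand): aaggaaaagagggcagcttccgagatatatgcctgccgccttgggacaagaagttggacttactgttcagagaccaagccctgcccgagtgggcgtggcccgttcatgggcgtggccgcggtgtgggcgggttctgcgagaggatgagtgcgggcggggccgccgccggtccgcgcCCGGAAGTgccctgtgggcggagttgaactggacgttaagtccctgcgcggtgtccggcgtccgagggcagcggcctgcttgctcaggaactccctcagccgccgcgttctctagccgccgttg
Acadm (chr2:245542815-245543114, minus strand): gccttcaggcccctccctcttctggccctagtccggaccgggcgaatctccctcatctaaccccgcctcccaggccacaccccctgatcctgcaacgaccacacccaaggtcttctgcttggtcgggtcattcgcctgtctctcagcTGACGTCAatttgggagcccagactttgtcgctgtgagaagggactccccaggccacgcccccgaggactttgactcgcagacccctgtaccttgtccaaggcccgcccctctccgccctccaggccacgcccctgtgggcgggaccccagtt
Ppargc1a (chr14:63634058-63634357, plus strand): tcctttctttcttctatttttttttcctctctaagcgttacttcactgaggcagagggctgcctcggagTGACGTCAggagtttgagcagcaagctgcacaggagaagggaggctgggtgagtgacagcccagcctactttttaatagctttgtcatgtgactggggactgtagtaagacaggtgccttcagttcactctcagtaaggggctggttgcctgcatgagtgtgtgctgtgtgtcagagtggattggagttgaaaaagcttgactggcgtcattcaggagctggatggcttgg
Hadha (chr6:31907551-31907850, plus strand): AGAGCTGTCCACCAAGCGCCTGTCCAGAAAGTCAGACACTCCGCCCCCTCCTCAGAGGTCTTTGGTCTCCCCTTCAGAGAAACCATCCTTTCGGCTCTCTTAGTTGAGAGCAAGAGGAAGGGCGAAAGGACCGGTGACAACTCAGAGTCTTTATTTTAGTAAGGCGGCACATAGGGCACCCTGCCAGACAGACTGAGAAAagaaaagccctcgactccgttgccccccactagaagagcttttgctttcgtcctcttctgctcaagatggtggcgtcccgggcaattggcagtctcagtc

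In all, 6 motifs were searched on both strands of the 6 windows. TGACGTCA, which reads the same on both strands, began 103 bases before the start of Acadm and 181 before that of Ppargc1a, and 1.83% of 33469 rat windows of the same length held it. CCGGAAGT began 74 bases before the start of Cpt2 and was in 3.81% of all windows. GGGCGG, the GC box, was present in Cpt2, Acadm, Hadha and Hadhb and in 33.1% of all windows. The match in Hadha lies in the bases shared with Hadhb and is also counted among the matches of Hadhb. CCAAT was found in Hadha and Ppargc1a and in 37.5% of all windows. AAGGTCA, an extended site for a nuclear receptor monomer, was found in Hadhb alone among the 6 and in 4.61% of all windows. TATAAA, in 14.2% of all windows, had no match in the 6. Within a window, no match of a motif overlapped that of another motif. These matches describe rat sequence and carry no measurement of binding.

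The comparison of DN with Ctrl asks how the pathway differed in the kidney of the model. Cpt2, Acadl and Acadvl rose, Ppargc1a fell, and the other 4 genes did not pass the test. Thus 4 of 8 genes were called (edgeR quasi-likelihood test, Benjamini-Hochberg adjusted p under 0.05 over 19233 genes, the test behind every adjusted p of a fold change below), against 32.2% of all genes in this comparison (16.9% higher and 15.3% lower). A single one of the 8 had DN and control libraries that did not overlap, against 16.2% of all genes. The median log2 fold change was -0.07 over the 8 genes and 0.0079 over all genes tested. The called genes thus moved in both directions. In bulk tissue, fewer cells of a type and less RNA per cell cannot be told apart.

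Cpt2 (ENSMUSG00000028607) encodes carnitine palmitoyltransferase 2, which turns acylcarnitines back into acyl-CoA at the inner mitochondrial membrane. It stood at 150.2, 176, 177, 177, 197 and 139 CPM in the DN libraries, against 80.8, 84.9, 76.6, 109, 68.7 and 68.9 CPM in the controls. Every DN library was above every control, and control library 4 was the highest control. The means were 169 ± 21.1 CPM in DN and 81.4 ± 14.8 CPM in Ctrl (SD, n = 6 each), a 2.08-fold rise (log2 fold change 1.06, SE 0.13, edgeR adjusted p = 1.12e-05).

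The acyl-CoA dehydrogenases catalyse the first step of each round and differ in the chain length they prefer: Acadvl (ENSMUSG00000018574) encodes the enzyme for very long, Acadl (ENSMUSG00000026003) that for long and Acadm (ENSMUSG00000062908) that for medium chains. Acadl stood at 394, 396, 371, 369.9, 429 and 292 CPM in DN, against 224, 216, 214, 313, 190.1 and 204 CPM in Ctrl. The groups met only at DN library 6 and control library 4, and the log2 fold change was 0.72 (SE 0.11, edgeR adjusted p = 0.000113). Acadvl showed the same arrangement, with 385, 416, 356, 362, 365 and 318 CPM in DN and 252, 242, 249, 332, 224 and 236 CPM in Ctrl. Its log2 fold change was 0.52 (SE 0.09, edgeR adjusted p = 0.00034).

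Acadm, by contrast, had a lower mean in DN. It stood at 738, 826, 607, 755, 614 and 713 CPM in DN, against 847, 1140.2, 827, 904, 726 and 1050.3 CPM in Ctrl. The ranges overlapped, although all 6 DN libraries were below the control median. The log2 fold change of -0.37 (95% interval -0.71 to -0.03) did not pass over all genes (edgeR adjusted p = 0.0894). It did pass without treated library 1, which enters the shared estimate of the spread (adjusted p = 0.0177), and in a fit of the 12 DN and control libraries alone (adjusted p = 0.025). These were the only 2 of 29 alternative settings in which Acadm was called.

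Hadha (ENSMUSG00000025745) and Hadhb (ENSMUSG00000059447) encode the alpha and beta subunits of the mitochondrial trifunctional protein, which carries out the last 3 steps of a round on long chains. Hadha was at 286, 346, 214, 319, 199 and 294 CPM in DN, against 322, 310.3, 299, 348, 280.5 and 261 CPM in Ctrl. Hadhb was at 330.3, 397, 205, 305, 188 and 289 CPM in DN, against 357, 307, 313, 383, 307 and 311 CPM in Ctrl. For both genes DN libraries 3 and 5 were the lowest of the DN group, and the spread within DN was wide. The log2 fold changes were -0.13 for Hadha (95% interval -0.39 to 0.12, edgeR adjusted p = 0.419) and -0.20 for Hadhb (95% interval -0.52 to 0.12, edgeR adjusted p = 0.32).

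Acaa2 (ENSMUSG00000036880) encodes the medium-chain thiolase that releases acetyl-CoA at the end of a round. It averaged 279.8 ± 20.5 CPM in DN and 279.5 ± 25.0 CPM in Ctrl, and the 95% interval of its log2 difference ran from -0.16 to 0.16 (edgeR adjusted p = 0.991).

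Ppargc1a (ENSMUSG00000029167) moved against Cpt2, Acadl and Acadvl. It stood at 104, 91.4, 88.5, 113, 100.4 and 119.9 CPM in DN, against 159, 157, 152, 119, 182 and 161 CPM in Ctrl. Of the DN libraries, 5 were below every control, and the sixth overlapped with control library 4 alone. The log2 fold change was -0.59 (SE 0.10, edgeR adjusted p = 0.000202) and its level decreased by 33.8% in DN.

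**Figure D1:**
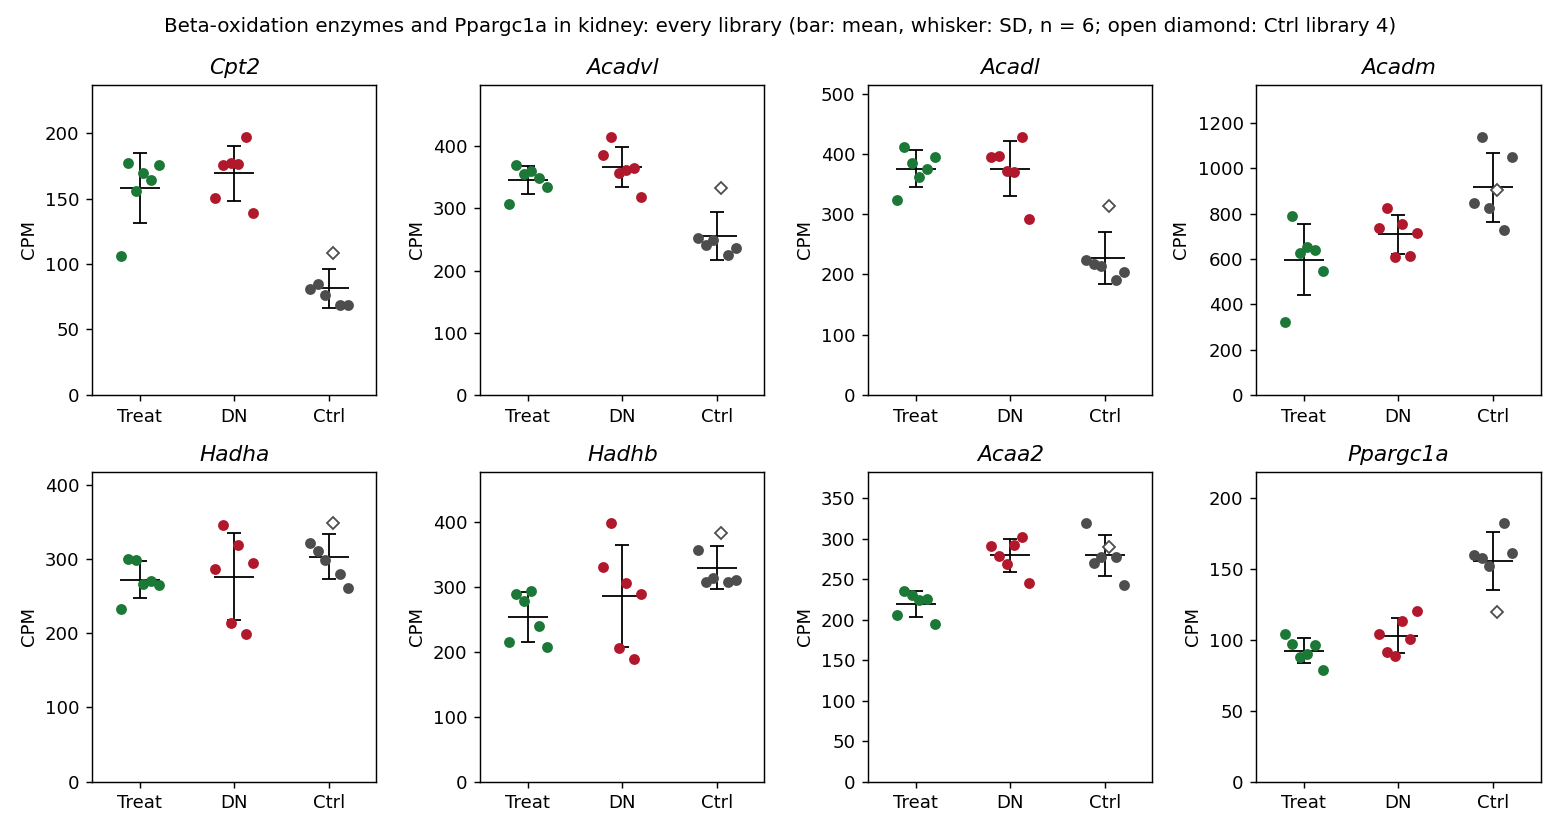
Each panel plots 1 gene in CPM (linear axis from 0) for the 6 Treat, 6 DN and 6 Ctrl libraries; points are libraries, the bar is the mean, the whisker the SD, and the open diamond is control library 4. Cpt2, Acadl and Acadvl are higher and Ppargc1a lower in Treat and DN than in most controls, control library 4 lies nearest to DN for each of these 4 genes, and Acaa2 is lower in Treat than in every DN and control library.

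Control library 4 was the control nearest to DN for each of the 4 called genes. It stood at 313 CPM for Acadl and 332 CPM for Acadvl, against at most 224 and 252 CPM in the 5 other controls, and at 119 CPM for Ppargc1a, against at least 152 CPM in those 5. Those 3 values were inside the range of the DN libraries, while its 109 CPM of Cpt2 was below it. Without control library 4, the same 4 genes were called and their log2 fold changes were 1.16 for Cpt2, 0.84 for Acadl, 0.61 for Acadvl and -0.66 for Ppargc1a. Without control libraries 4 and 5 they were 1.12, 0.81, 0.58 and -0.62, and 4 genes were again called. A further fit had the division of the controls as a term, so that control library 4 alone served as the baseline. This single library has no replicate in that fit and is assumed to vary like the other libraries. Calls fell across all genes to 5.13%, and edgeR called 0 of 8 genes (1 at an unadjusted p under 0.05), a count near that background. Its log2 fold changes were 0.64 for Cpt2 (edgeR adjusted p = 0.105), 0.26 for Acadl (0.378), 0.14 for Acadvl (0.565) and -0.22 for Ppargc1a (0.444). Relative to this 1 library the differences of the 4 genes were thus smaller, by over 1.5 times for each. Smaller differences follow from the choice of the control nearest to DN as the baseline and are no separate result. With 1 control on the side of the DN libraries, the model and the division of the controls cannot be told apart.

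Treat was set against DN to ask for effects of TSK in the model. Acaa2 fell, and the other 7 genes did not pass the test. This is 1 of 8, against 1.39% of all genes called in this comparison (0.536% higher and 0.858% lower), and 1 of 8 without overlap, against 1.8% of all genes. The split of all genes called, 103 higher and 165 lower, depended on the scaling and was 654 higher and 121 lower with unscaled library totals. The median log2 fold change was -0.13 over the 8 genes and -0.0051 over all genes tested.

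Acaa2 stood at 206, 236, 230.4, 224, 225 and 195 CPM in Treat, against 291, 279, 269, 293, 302 and 245 CPM in DN. All 6 treated libraries lay below all 6 DN libraries. The means were 219.5 ± 15.6 CPM in Treat and 279.8 ± 20.5 CPM in DN (SD, n = 6 each), and the level decreased by 21.5% in Treat (log2 fold change -0.35, SE 0.08, edgeR adjusted p = 0.0279). The adjusted p lay near the threshold: the call held in 20 of 29 alternative settings, and the log2 fold change ranged from -0.39 to -0.22. It was -0.22 (adjusted p = 0.0823) with unscaled library totals, a scaling that moved the median of all genes by 0.13. Leaving out treated library 3 or 6 or DN library 1, 2 or 4 also ended the call, with adjusted p values of 0.0512 to 0.0711.

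The genes that were higher in the model did not differ detectably between Treat and DN. Cpt2 stood at 106, 177, 156, 169, 164 and 176 CPM in Treat, and treated library 1 alone was below the DN range. The Treat minus DN log2 difference of Cpt2 was -0.10, with a 95% interval of -0.37 to 0.17 (edgeR adjusted p = 0.752), and -0.0093 without treated library 1. Acadl averaged 375 ± 30.7 CPM in Treat and 375 ± 45.9 CPM in DN, with a 95% interval of the log2 difference from -0.24 to 0.24. Acadvl averaged 346 ± 22.7 CPM in Treat and 367 ± 32.4 CPM in DN, with an interval from -0.28 to 0.11. Treatment effects of the size of the DN minus Ctrl differences of Cpt2, Acadl and Acadvl from all 6 controls, in the opposite direction, lie outside these 3 intervals. With control library 4 as the baseline the difference of Acadvl was 0.14, and its reverse lies inside the interval. On that baseline the difference of Acadl was 0.26, whose reverse lies only just outside its interval, and that of Cpt2 was 0.64. These 3 differences rest on a single control library.

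No rise of Ppargc1a was detected under treatment. It stood at 104, 97.1, 87.4, 89.9, 96.5 and 78.6 CPM in Treat, and 5 of these libraries were below the DN median. The log2 difference from DN was -0.16, with a 95% interval of -0.36 to 0.05 (edgeR adjusted p = 0.455). Acadm averaged 596 ± 156 CPM in Treat and 709 ± 85.1 CPM in DN, with 321 CPM in treated library 1 and at least 548 CPM in the 5 others. Its log2 difference was -0.25, with a 95% interval of -0.59 to 0.09. Leaving out treated library 1 brought the difference of Acadm to -0.12 (edgeR adjusted p = 0.69). For Hadha the interval ran from -0.28 to 0.23 and for Hadhb from -0.49 to 0.15.

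**Figure D2:**
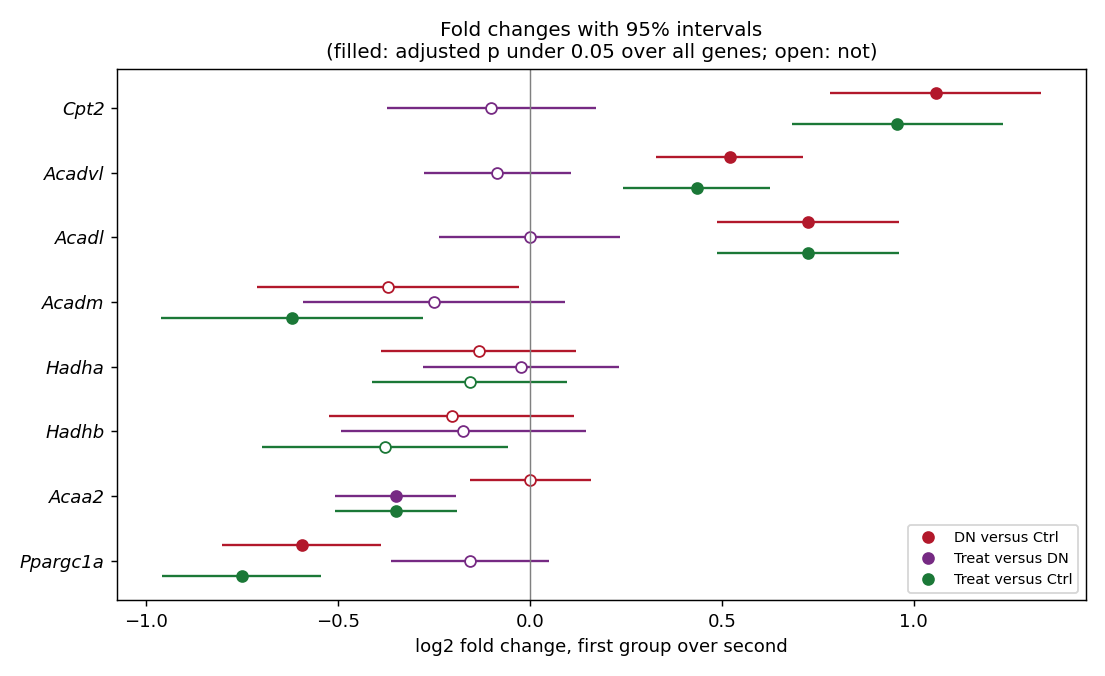
Points give the log2 fold change of each gene, first-named group over second, for DN versus Ctrl, Treat versus DN and Treat versus Ctrl, and lines give the 95% interval; filled points passed an adjusted p of 0.05 over all genes. Cpt2, Acadvl and Acadl lie to the right of 0 against Ctrl in both DN and Treat, Ppargc1a lies to the left, and Acaa2 is the filled point for Treat versus DN.

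The comparison of Treat with Ctrl asks how far treated animals still stood from the controls. It shares the treated or control libraries with the comparisons above, so its values are set beside them and not counted as further support. Cpt2, Acadl and Acadvl were higher and Acadm, Acaa2 and Ppargc1a lower in Treat. These are 6 of 8, against 44.9% of all genes called (23% higher and 21.9% lower), and 4 of 8 had no overlap, against 24.7% of all genes. All genes called numbered 4415 higher and 4214 lower, and 5670 higher and 3127 lower with unscaled library totals. The median log2 fold change was -0.25 over the 8 genes and 0.02 over all genes tested.

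Cpt2 averaged 158 ± 26.5 CPM in Treat and 81.4 ± 14.8 CPM in Ctrl (SD, n = 6 each; log2 fold change 0.96, edgeR adjusted p = 1.97e-05). The log2 fold changes of the other risers were 0.72 for Acadl (edgeR adjusted p = 7.01e-05) and 0.43 for Acadvl (edgeR adjusted p = 0.000962). Ppargc1a decreased by 40.6% in Treat relative to Ctrl (log2 fold change -0.75, SE 0.10, edgeR adjusted p = 1.33e-05), and all 6 treated libraries lay below all controls, control library 4 included. Acadm stood at 321, 792, 624, 652, 639 and 548 CPM in Treat, which left 5 treated libraries below every control (log2 fold change -0.62, SE 0.16, edgeR adjusted p = 0.00497). Without treated library 1 its log2 fold change was -0.49. Acaa2 fell by 0.35 on the log2 scale (edgeR adjusted p = 0.0012), with no overlap between the groups.

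Hadhb missed the threshold narrowly. Its libraries were at 214, 289, 278, 293, 239.6 and 207 CPM in Treat, all of them below the lowest control at 307 CPM. The log2 fold change was -0.38 (95% interval -0.70 to -0.06, edgeR adjusted p = 0.0512), and it was called in 10 of 29 alternative settings, DESeq2 among them (adjusted p = 0.0318). Control library 4 was the highest control for Hadhb, at 383 CPM. Without this library the log2 fold change was -0.33 (edgeR adjusted p = 0.101). With unscaled library totals it was -0.28 (edgeR adjusted p = 0.154). Hadha was at 232, 299, 299, 266, 271 and 265 CPM in Treat (log2 fold change -0.16, 95% interval -0.41 to 0.10). With control library 4 alone as the baseline, edgeR called 9.68% of all genes between Treat and Ctrl and 0 of the 8 (4 at an unadjusted p under 0.05). The log2 fold changes of the 6 genes called against all controls were then 0.54 for Cpt2 (edgeR adjusted p = 0.131), 0.26 for Acadl (0.324), 0.06 for Acadvl (0.816), -0.60 for Acadm (0.2), -0.40 for Acaa2 (0.0756) and -0.37 for Ppargc1a (0.131).

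Ratios of counts within a library need no scaling between libraries, and 3 of them were tested in 3 comparisons with two-sided exact permutation tests, adjusted over the 9 tests. The ratio of Acadm to Acadvl was lower in the model. It uses the same counts as the fold changes above, -0.37 for Acadm (not called) and 0.52 for Acadvl, and is not separate evidence. The same holds for the ratios of Acadl to Acadvl and of Hadha to Hadhb below. How often ratios of other gene pairs separate the groups was not tested. The log2 ratio of Acadm to Acadvl counts was 0.94, 0.99, 0.77, 1.06, 0.75 and 1.17 in DN, against 1.75, 2.24, 1.73, 1.44, 1.69 and 2.15 in Ctrl. No DN library reached any control, and control library 4, at 1.44, was again the control nearest to DN. The difference was -0.89 (exact p = 0.00216, the smallest that 924 splits can give; adjusted p = 0.00649). In Treat the ratio was 0.07, 1.10, 0.81, 0.86, 0.87 and 0.72, again below every control (difference -1.10, exact p = 0.00216, adjusted p = 0.00649). Treat and DN overlapped (difference -0.21, exact p = 0.216, adjusted p = 0.216).

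The balance of Acadl to Acadvl moved the other way and by less. Its log2 ratio averaged 0.12 ± 0.08 in Treat, 0.03 ± 0.12 in DN and -0.18 ± 0.06 in Ctrl (SD, n = 6 each). The DN minus Ctrl difference was 0.21 (exact p = 0.00433, adjusted p = 0.00974). Control library 4, at -0.08, was the only control inside the DN range of -0.12 to 0.23, and without this library the difference was 0.23. The Treat minus Ctrl difference was 0.30 without overlap (exact p = 0.00216, adjusted p = 0.00649). The Treat minus DN difference of 0.09 did not pass (exact p = 0.162, adjusted p = 0.209).

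The genes of the subunits of the trifunctional protein share the promoter stretch shown above. The log2 ratio of Hadha to Hadhb averaged 0.11 ± 0.16 in Treat, -0.03 ± 0.14 in DN and -0.12 ± 0.09 in Ctrl (SD, n = 6 each). Treat exceeded Ctrl by 0.23 (exact p = 0.013, adjusted p = 0.0234), with overlapping libraries. Neither DN minus Ctrl (0.09, exact p = 0.199, adjusted p = 0.216) nor Treat minus DN (0.14, exact p = 0.126, adjusted p = 0.188) passed.

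**Figure D3:**
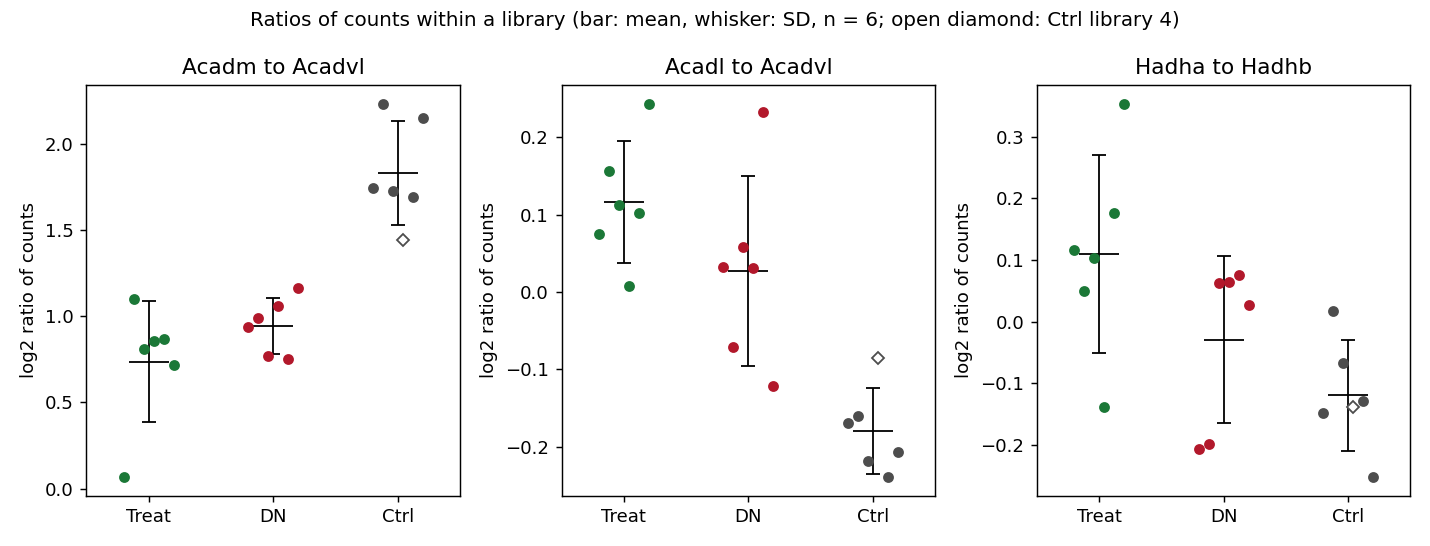
The panels plot the log2 ratio of counts of Acadm to Acadvl, Acadl to Acadvl and Hadha to Hadhb in every Treat, DN and Ctrl library; the bar is the mean, the whisker the SD (n = 6), and the open diamond is control library 4 (the axes differ and do not start at 0). For Acadm to Acadvl all DN libraries, at 0.75 to 1.17, lie below all controls, at 1.44 to 2.24.

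As a share of the counts of the 8 genes together, Acadm made up 25.4% ± 4.08 in Treat, 27.6% ± 1.38 in DN and 35.9% ± 4.53 in Ctrl, and Acadl 16.3% ± 1.26, 14.7% ± 2.07 and 8.88% ± 1.19 in the same groups (SD, n = 6 each). The share of Cpt2 was 6.81% ± 0.71 in Treat, 6.66% ± 1.10 in DN and 3.18% ± 0.38 in Ctrl. These shares describe how each gene's part changed between groups, not which gene was most abundant. The summed level of the 8 genes overlapped between the groups, at 2312 ± 288 CPM in Treat, 2565 ± 241 CPM in DN and 2547 ± 200 CPM in Ctrl. Acadm weighs most in this sum and changes in opposite directions cancel in it, so the sum does not show an unchanged pathway.

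Within the groups, no relation between Ppargc1a and an enzyme passed. Correlations of log2 CPM between Ppargc1a and each of the 7 enzymes over the 6 libraries of a group were positive for 2 of 7 in Treat, 3 of 7 in DN and 0 of 7 in Ctrl, and none of the 24 relations computed passed adjustment (lowest exact permutation p = 0.1 after adjustment). The closest by Pearson r was that with Acadvl in the controls (Pearson r = -0.97, exact permutation p = 0.00833, adjusted 0.1, and Spearman rho = -0.83, exact permutation p = 0.0583, adjusted 0.467). Without control libraries 4 and 5, the farthest from the median of Ppargc1a, r was -0.50, so the relation rests on those libraries. The correlation of Hadha with Hadhb did not pass either. It was highest within DN (Pearson r = 0.96, exact permutation p = 0.00833, adjusted 0.1; Spearman rho = 0.83, exact permutation p = 0.0583, adjusted 0.467), with r = 0.70 without DN libraries 3 and 5, and had the same sign in Treat (Pearson r = 0.69, exact permutation p = 0.146, adjusted 0.438; Spearman rho = 0.60, exact permutation p = 0.242, adjusted 0.644) and in Ctrl (Pearson r = 0.80, exact permutation p = 0.0556, adjusted 0.244; Spearman rho = 0.60, exact permutation p = 0.242, adjusted 0.644). Without treated libraries 1 and 2, r was 0.42 in Treat, and without control libraries 4 and 6 it was 0.71 in Ctrl.

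The gene most like the mean of the 8 standardised profiles, once group means were subtracted, was ENSMUSG00000021629 (Pearson r = 0.86 over 18 libraries, among 11804 genes at 5 CPM or more). It averaged 66.5 ± 9.06 CPM in Treat, 76.1 ± 10.7 CPM in DN and 65.0 ± 5.71 CPM in Ctrl. Over the 18 libraries as they were, ENSMUSG00000022680 was the most like (r = 0.87). A further 4 lists with 51 symbols of the pathway's other enzymes, of PGC-1alpha partners, of peroxisomal oxidation and of fatty acid uptake could not be matched to any identifier and were not analysed here.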

How the data were processed

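The authors deposited raw counts per gene, 1 column per library, from polyadenylated kidney RNA. GRCm38 and mm10, mouse builds, are named in the submitters' processing notes, whereas per the labels the animals were rats. The sources used here name no aligner, counter or strandedness, so reads of overlapping or antisense genes cannot be separated. Groups and replicate numbers came from sample titles. The rule for the 8 genes uses no expression value, but the genes and lists were proposed with earlier results of these data known.

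Counts were fitted in R 4.3.3 with edgeR 4.0.16 (filterByExpr, 19233 genes; TMM factors; 1 coefficient per group over 18 libraries; glmQLFTest). Standard errors came from the F statistics. Log2 CPM used a prior count of 2 and ratios 0.5 added to each count. The fit was tested on simulated data. Alternatives used DESeq2 1.42.0, limma 3.58.1 and other scalings, filters and samples. Leaving out control libraries 4 and 5 together was added after the data had been seen. Named were all 8 genes and the 2 most similar profiles. That libraries are separate animals follows from the series description, and no pair of a group agreed within sampling noise (chi-square of at least 12.8 per degree of freedom). Library shares of cell type markers could not be computed without gene names.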

Additional observations from a re-analysis of the deposited data

Results flagged for a closer look

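In 33 sets of 6 values (8 genes and 3 ratios in 3 groups), 4 values stood apart from the rest of their group by Dixon's test, against 1.65 that chance gives at 1 in 20. Control library 4 was high for Acadl (313.2 CPM, the next control at 224.1) and for Acadvl (332.1 CPM, the next at 252.0). Treated library 1 was low for Cpt2 (106.3 CPM, the next treated library at 155.5). Its log2 ratio of Acadm to Acadvl was also low (0.067, the next at 0.72).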

How the results depend on the processing

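Of the 24 fold changes (8 genes in 3 comparisons), all kept direction and call with a CPM above 1 in at least 6 libraries and without control libraries 4 and 5. The cause of the changes below was not tested. With control library 4 as the baseline (the division of the controls as a term), edgeR called 0 of the set against Ctrl in both DN and Treat, and 986 and 1862 of all genes. A minimum change of 2-fold left 0 of the set in each comparison and 444, 0 and 712 of all genes (DN versus Ctrl, Treat versus DN, Treat versus Ctrl). In Treat versus DN, 0 of the set were called with library totals, no filter or only the 12 libraries compared, where all genes called numbered 775, 119 and 115. DESeq2 called 799, voom 737 and the replicate block 117, against 268. Correlations between the deviations of same-numbered libraries were weak (-0.19 to 0.19) and cannot show whether numbers pair animals, which the labels do not state. In Treat versus DN, 2 treated libraries were most like the DN library of their own number, against 0 in the other comparisons. The block moved no call of the 8 genes other than that of Hadhb, which was called in Treat versus Ctrl (-0.38 on the log2 scale, edgeR adjusted p = 0.0437).

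With single libraries left out, genes of the set called ranged from 4 to 5 (DN versus Ctrl), 0 to 1 (Treat versus DN) and 6 to 7 (Treat versus Ctrl), and all genes called from 5088 to 6910, 100 to 443 and 7885 to 8953. Ratios stayed on their side except Treat versus DN for Acadl to Acadvl without DN library 5 (0.13, adjusted exact permutation p = 0.0357) and for Hadha to Hadhb without treated library 4 (0.19, 0.0325). Their ranges, in the order DN versus Ctrl, Treat versus DN, Treat versus Ctrl, were 0.063 to 0.13, 0.091 to 0.19 and 0.18 to 0.28 for Hadha to Hadhb, -0.97 to -0.81, -0.28 to -0.07 and -1.18 to -0.96 for Acadm to Acadvl, and 0.17 to 0.24, 0.060 to 0.13 and 0.27 to 0.32 for Acadl to Acadvl.

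All sign changes were in differences near 0 that were not called. For Acaa2 in DN versus Ctrl, the log2 fold change was -0.0028 with RLE factors and with DESeq2, -0.029 with library totals, -0.0021 with 12 libraries, -0.050 with control library 4 as the baseline, and -0.036 to 0.043 with 1 library left out. In Treat versus DN, library totals gave 0.028 for Cpt2, 0.044 for Acadvl and 0.10 for Hadha. Hadha was at 0.00021 with 12 libraries. With 1 library left out, Hadha ranged from -0.088 to 0.051 and Acadl from -0.062 to 0.053.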
